A study of Mus musculus and synthetic construct with 32 samples.

Results

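ERVL and MaLR elements are long terminal repeat (LTR) retrotransposons, copies of ancient retroviruses and of their shortened relatives that sit in many places of the mouse genome. In the deposited tables they are rows of repeat reads whose name carries the class ERVL, and each row sums the reads of a family over the genome on 1 strand. A read in the direction of the element counts as sense and a read from the other strand as antisense. The rule found 440 such rows among 88716 rows in all and 2464 repeat rows, from 221 families, 219 of them on both strands. By name, 16 rows were MERVL or MT2 (8 families), 40 were MT (20 families), 58 were ORR1 (29 families), 115 were MLT1 (58 families) and 211 had other names. The class part of the name was ERVL for 219 rows, ERVL-MaLR for 215 and an uncertain ERVL for 6. Names that end in -int stand for the internal part of an element, and the others for its LTRs.

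MERVL is an endogenous retrovirus of the mouse, and MT2_Mm is the name of its LTR, which acts as a promoter in the early embryo just after the genome is switched on. MT, ORR1 and MLT1 are MaLR families, which have no protein genes of their own like those of a retrovirus, and MLT1 is the oldest of them, shared by many mammals. LTRs of the MT group serve as promoters of many transcripts in the mouse oocyte. N6-methyladenosine (m6A) is a base mark on RNA that YTH domain proteins bind, and it lies on RNA of several retroviral families. YTHDC2 is a helicase of this kind, and germ cells need it to go through meiosis.

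The study asked what loss of Ythdc2 does to RNA of the germline, and all mice were of the C57BL/6J strain. Total RNA without ribosomal RNA came from testes at postnatal day 12 (P12), with 3 YTHDC2 -/- and 3 YTHDC2 +/- libraries, from testes at P8, with 2 -/-, 1 +/- and 1 +/+ library, and from ovaries at P0, with 2 -/- and 2 +/- libraries. For m6A, polyadenylated RNA of YTHDC2 +/+ testes at P8 was fragmented and drawn down with an m6A antibody, in 1 immunoprecipitate library beside 1 input library. Mean counts in the m6A table also cover P12 testes of YTHDC2 +/- mice and P20 testes of YTHDC2 +/+ mice, each with 2 immunoprecipitates and 2 inputs, whose folds are not used here. Of 2 knockout lines, one has stop codons in exon 7 and one lacks that exon, the +/- controls carry 1 such allele, and the line behind each library is not labelled.

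Each value below is the authors' own comparison, so the spread between libraries cannot be shown. The tables give a mean normalized count over all libraries of a table, a log2 fold change and an adjusted p, and no value per library. The folds of rows with few counts are drawn toward 0. The median fold of all repeat rows was within 0.03 of 0 on each strand in every comparison used here. Which features were scaled together is not stated, so it is not known whether a shift of all repeats relative to genes would show. A row passed the test at an adjusted p below 0.05, and rows with a mean count of at least 10 were used for counts and medians. The labels do not say that libraries of a group came from separate animals, and the p-values then measure the spread between these samples, which may be technical. The Ythdc2 transcript, counted over all exons, was at -1.29 in P12 testis (adjusted p = 9.87e-25 by the authors' deposited table), and at -0.50 at P8 and -0.43 in ovary, where it did not pass (adjusted p = 1 and 0.584).

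ERVL families gave reads from both strands in gonads, with more antisense than sense reads in total RNA. Over families with at least 100 summed counts, 34.9% of the mean normalized counts at P8 were sense, 36.4% at P12 and 34.5% in ovary. A sense share over 50% was seen in 26 of 185 families in P8 testis, 25 of 178 in P12 testis and 19 of 173 in ovary. All other repeats, pooled over classes and with no minimum count, had sense shares of 58.2% at P8, 66.9% at P12 and 56.3% in ovary. Other LTR classes were not taken apart, so whether they share the antisense excess is not shown. Internal parts were nearer to balance than LTRs, with 45.3% sense against 33.0% at P8. ERVL rows made up 11.1% of all repeat counts at P8, 8.38% at P12 and 11.9% in ovary. These counts follow the copy number and length of a family, which are not in the tables, so they are compared here between strands of a family and not between families.

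Single families show this balance. The internal part of the retrovirus, MERVL-int, had a mean normalized count of 3817 sense and 2513 antisense in the authors' deposited table at P8. Its LTR, MT2_Mm, had 1065 sense and 1509 antisense, also in the authors' deposited table. So the internal part had more sense reads and the LTR more antisense reads. For MTA_Mm, an LTR used as a promoter in oocytes, the authors' deposited table gave mean normalized counts of 9076 sense and 15214 antisense at P8, and 4870 and 4822 for its internal part. MTD, another MT LTR, had 44883 sense and 70173 antisense in the authors' deposited table, and ORR1D1, an ORR1 LTR, 14490 and 37063. The older MLT1A0 had 5620 sense and 11256 antisense in the authors' deposited table. All 9 MT LTRs and all 14 ORR1 LTRs had under 50% sense reads at P8, while 3 of 11 MT internal parts and 6 of 14 ORR1 internal parts had over 50%.

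Summed over ERVL families, the m6A table had the opposite balance. There 59.3% of the mean normalized counts of ERVL families were sense, and 100 of 159 families were over 50%. The sense share was 73.6% for internal parts and 55.3% for LTRs. MERVL and MT2 rows had 67.2% sense against 42.4% in the P8 total RNA, and all 8 families were over 50%. MT internal parts had 77.1%, and 13 of 14 ORR1 internal parts were over 50%. The balance was nearer to even in the rest, with 20 of 35 MLT1 families and 30 of 68 families with other names over 50%. Their median sense shares were 51.5% and 48.2%. Of the 158 families measured in both tables, 144 had a higher sense share in the m6A table, as the plot of sense shares shows. Other repeats also had a higher sense share there, 79.2%. The m6A table averages polyadenylated input and immunoprecipitate of P8 and P20 wild-type and P12 heterozygous testes, made with another library kit, and the parts of these differences in the shift cannot be told apart.

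**Figure D1:**
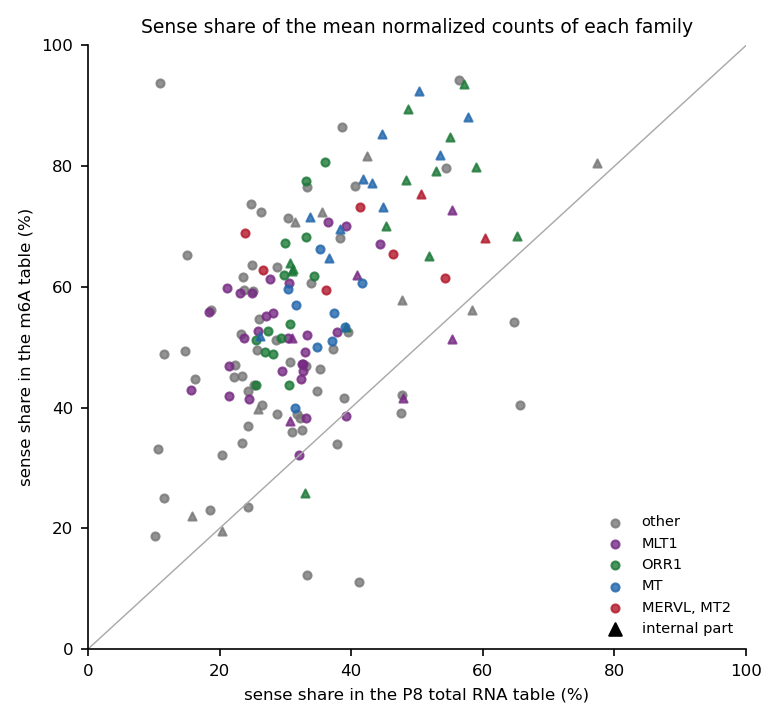
Sense share of the mean normalized counts of each ERVL or MaLR family (percent) in the P8 total RNA table (x axis) and in the m6A table (y axis), 1 point a family, circles for LTRs and triangles for internal parts, coloured by name. Of the 158 families drawn, 144 lie above the grey line of equal shares, and all 8 MERVL and MT2 families are over 50% in the m6A table.

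The P8 m6A libraries were used here to ask which of these RNAs carried the mark in wild-type testis. At P8 many sense rows of MERVL, MT and ORR1 were enriched in the immunoprecipitate, in MT and ORR1 most of all in the internal parts. Of 172 sense ERVL rows tested, 48 (27.9%) were higher in the immunoprecipitate than in input and 1 was lower, where over all sense repeat rows, members included, 18.3% were higher and 6.67% lower. Among the other sense repeat rows 119 of 743 were higher, 16.0%. Among sense exons 26.9% were higher and 26.3% lower. The share of sense ERVL rows called higher was thus near that of exons, while fewer were lower. Of 193 antisense ERVL rows tested, 27 were higher and 5 lower, against 11.1% higher and 11.7% lower over all antisense repeat rows. Another 28 sense rows with a mean count of at least 10 had no adjusted p, since the authors' p-values start at a mean count of 32.8 there. With 1 library on each side there is no replicate at P8 behind these p-values, so they compare these libraries.

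All 8 MERVL and MT2 sense rows were higher in the immunoprecipitate, with a median log2 fold of 1.30. MERVL-int, which encodes the proteins of the retrovirus, rose by 1.52 (adjusted p = 1.34e-15 by the authors' deposited table), at a mean count of 1134. Its LTR MT2_Mm rose by 1.19 (adjusted p = 6.39e-04 by the authors' deposited table). So both the promoter and the coding part passed in these 2 libraries. The related internal part MERVL_2A-int was at 1.40, and the LTRs of older relatives ran from 0.47 for MT2B (adjusted p = 0.0143) to 1.82 for MT2C_Mm in the authors' deposited table. MT2A, MT2B1 and MT2B2 lay between them, at 1.40, 1.20 and 0.89 in the authors' deposited table.

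The antisense reads of the same families did not follow. Of 8 antisense rows of MERVL and MT2, 2 were higher, 3 were lower and 3 did not pass, with a median of -0.26, or 0.15 as a mean weighted by counts. Antisense MT2_Mm fell, with a log2 fold of -1.33 (adjusted p = 2.27e-05 by the authors' deposited table), at a mean count of 211. Antisense MT2C_Mm and MERVL_2A-int were also lower, at -0.55 and -0.39 (adjusted p = 0.0245 and 0.0375 by the authors' deposited table). Those that rose were MT2B1, at 0.92, and MERVL-int, at 0.74 (adjusted p = 4.22e-12 and 0.001 by the authors' deposited table). The sense and antisense rows of MT2_Mm thus passed in opposite directions. Strands were compared by their calls, and the difference between strands was not tested.

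**Figure D2:**
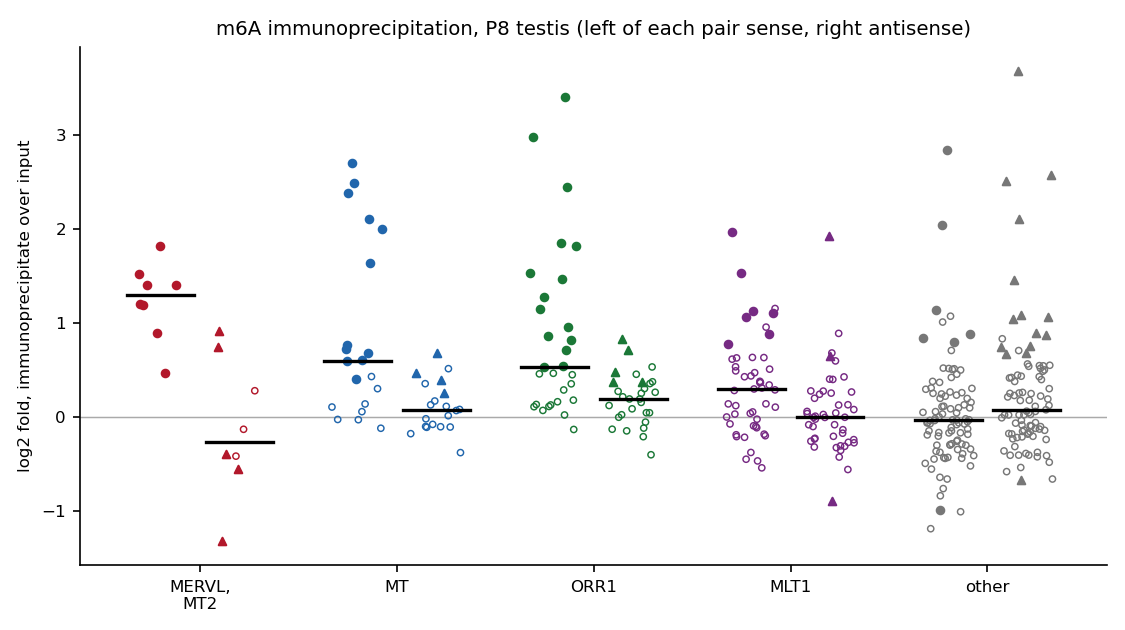
Log2 fold of m6A immunoprecipitate over input at P8 (y axis) for ERVL and MaLR rows with a mean count of at least 10, by name (x axis), sense on the left of each pair and antisense on the right. Filled marks passed an adjusted p of 0.05 (circles sense, triangles antisense), open marks did not or had no adjusted p, and black bars are medians, which for sense rows fall from 1.30 in MERVL and MT2 to -0.04 in the other names.

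Of the 20 sense MT rows, 12 were higher in the immunoprecipitate and 8 did not pass, with a median of 0.60. Internal parts led. MTA_Mm-int rose by 2.70 (adjusted p = 3.42e-36 by the authors' deposited table), at a mean count of 4484, while the MTA_Mm LTR stood at -0.03 (adjusted p = 0.947) in that table, at 1146. MTB-int was at 2.49 and its LTR at -0.03 (adjusted p = 4.83e-24 and 0.951 by the authors' deposited table). For MTE2b, an older MT family, both passed, the internal part at 2.38 and the LTR at 0.76 (adjusted p = 9.03e-36 and 4.77e-06 by the authors' deposited table). MT-int was at 2.10, MTE2a-int at 2.00 and MTB_Mm-int at 1.64 in the authors' deposited table, and all 3 passed. MTC-int, MTD-int, MTEa-int and MTE-int also passed, at 0.72, 0.68, 0.60 and 0.59 in the authors' deposited table, and MTEb-int at 0.43 did not (adjusted p = 0.226). In all 9 MT families with both rows the internal part was above the LTR, with a median difference of 1.58. The LTRs that passed were MTE2b and, at 0.40 in the authors' deposited table, MTEb (adjusted p = 0.0461).

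On the antisense strand 4 of 20 MT rows were higher, 0 were lower, and all 4 were LTRs. MTB was at 0.68, MTA_Mm at 0.47, MTB_Mm at 0.39 and MTD at 0.26 in the authors' deposited table. Antisense MTA_Mm-int, at 0.13, did not pass (adjusted p = 0.793 by the authors' deposited table). MTA_Mm was thus called in its internal part on the sense strand and in its LTR on the antisense strand.

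Of the 28 sense ORR1 rows tested, 15 were higher, 0 were lower and 13 did not pass, with a median of 0.53 over the 29 rows measured, or 0.86 as a mean weighted by counts. ORR1A0-int had the highest fold of all sense ERVL rows, 3.40 (adjusted p = 8.57e-57 by the authors' deposited table), at a mean count of 1287. The ORR1A0 LTR was at 1.54 (adjusted p = 1.70e-07 by the authors' deposited table). ORR1A1-int at 2.98, ORR1A4-int at 2.45, ORR1A3-int at 1.85 and ORR1A2-int at 1.82 followed in the authors' deposited table. Their LTRs were lower, with ORR1A4 at 1.27, ORR1A1 at 0.86, ORR1A2 at 0.54 and ORR1A3, which did not pass, at 0.46 in the authors' deposited table. The internal part was above the LTR in 12 of 14 ORR1 families, with a median difference of 0.68, and the exceptions were ORR1E and ORR1F.

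Within ORR1 the enrichment was highest in the A names and lower toward the later letters. The median sense fold of internal parts was 2.45 for A (5 of 5 passed), 1.31 for B, 0.89 for C and 0.45 for D, and 0.02 for E, 0.18 for F and 0.16 for G. That of the LTRs was 0.86 for A, 0.53 for B, 0.21 for C, 0.11 for D and 0.13 for E, with 0.53 for F and 0.07 for G, so the LTRs did not keep the order. MT internal parts showed a like course, with 2.70 for A, a median of 2.06 for B, 0.72 for C, 0.68 for D and 0.60 for E. In MT the E group was wide, from 0.43 for MTEb-int to 2.38 for MTE2b-int. These are descriptions over few rows of the same 2 libraries, and no test of the order was made. Antisense ORR1 rows were higher in 5 of 29 and lower in 0, led by ORR1F at 0.83, ORR1D2 at 0.71 and ORR1E at 0.47 in the authors' deposited table. All 5 were LTRs.

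**Figure D3:**
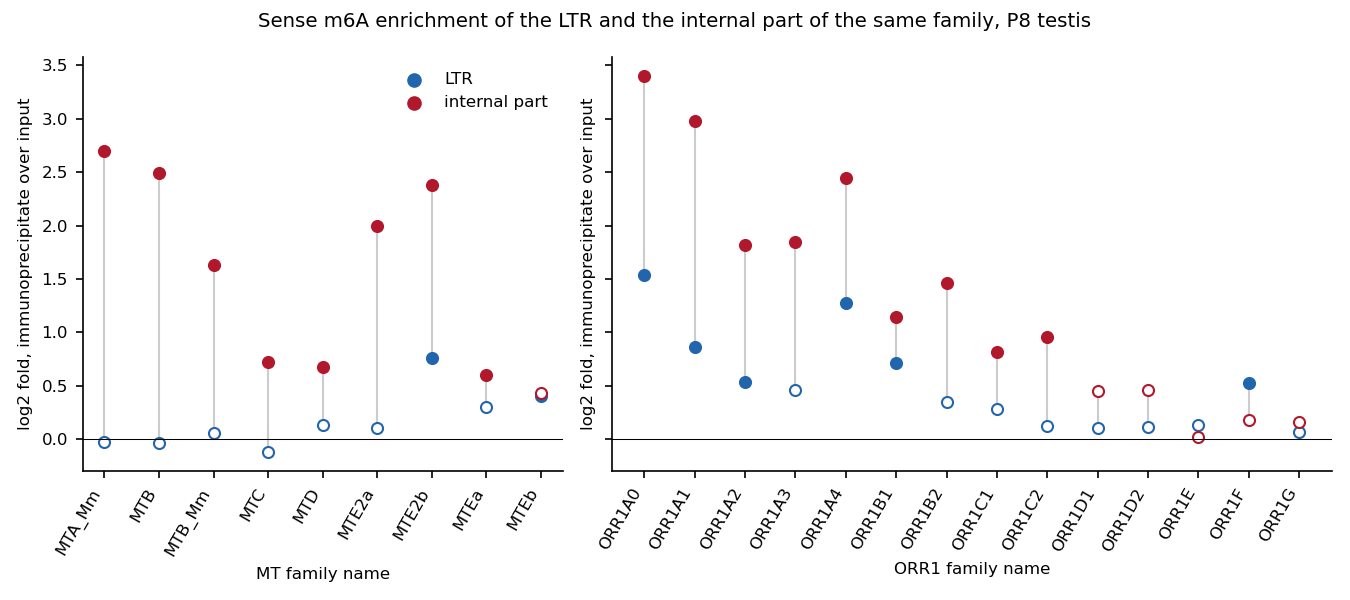
Sense log2 fold of m6A immunoprecipitate over input at P8 (y axis) for the LTR (blue) and the internal part (red) of each MT and ORR1 family with both rows (x axis), filled where the adjusted p was below 0.05. Open marks did not pass, or had no adjusted p in the case of the ORR1G internal part. The internal part is above the LTR in 9 of 9 MT and 12 of 14 ORR1 families. The ORR1 internal parts drawn range from 3.40 for ORR1A0 to 0.02 for ORR1E.

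MLT1 and the other names had the lowest medians. Of 42 sense MLT1 rows tested 7 were higher, close to the 18.3% of all sense repeat rows. Their median was 0.30, or 0.13 with no minimum of the mean count and 0.45 as a mean weighted by counts. Of 74 sense rows with other names 6 were higher and 1 was lower, with a median of -0.04, or 0.34 as a mean weighted by counts. Over all names with both rows, the sense internal part was above the LTR in 34 of 44 families, and in MLT1 in 11 of 19. On the antisense strand it was above the LTR in 11 of 41. Single families among them still had high folds. LTR67B, the highest of all, was at 3.69 on the antisense strand (adjusted p = 2.57e-105 by the authors' deposited table), and LTR101_Mam at 2.84 on the sense strand. MLT2F at 2.57, LTR50 at 2.51, LTR33A at 2.10 and MLT1M at 1.93 were antisense rows in the authors' deposited table, and ERVL-B4-int at 2.05 and MLT1J1-int at 1.97 were sense rows. The rows that fell outside the MERVL names were sense HERVL40-int at -0.99, antisense MLT1H-int at -0.89 and antisense ERV3-16A3_I-int at -0.67 (adjusted p = 0.0334, 0.00139 and 0.00537 by the authors' deposited table). The tables do not separate the copies of a family or tell which lie inside genes.

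The knockout comparisons asked whether loss of Ythdc2 changed these RNAs. In P12 testis no ERVL row passed. Of 198 sense and 147 antisense rows with an adjusted p, 0 passed, where 0.0945% of all sense repeat rows, 2.73% of all antisense repeat rows and 0.916% of all features did. The adjusted p-values are those of DESeq2, per the submitters' processing notes, the tables hold no unadjusted p, and no other tool could be run. On the antisense strand 62 ERVL rows with a mean count of at least 10 had no adjusted p, which the authors' table gives from a mean count of 178 upward. The smallest adjusted p on the antisense strand was 0.0802, for LTR33A at a log2 fold of 0.19 in the authors' deposited table, and on the sense strand 0.389, for MTE2b-int at 0.25.

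The folds themselves were small. In P12 testis the median over sense rows was -0.03, with an SD over rows of 0.0859, and 73 of 198 rows were above 0, against a median of 0.01 over the other sense repeats. Medians were 0.01 for MERVL and MT2, with 4 of 8 rows above 0, -0.05 for MT with 6 of 20, -0.06 for ORR1 with 8 of 29, -0.04 for MLT1 with 15 of 44 and -0.03 for the other names with 40 of 97. Antisense rows had a median of 0.00. MERVL-int was at -0.02 sense and -0.08 antisense, and MT2_Mm at -0.02 and 0.08 (adjusted p = 0.981, 0.55, 0.981 and 0.644 by the authors' deposited table). The lowest folds were those of MLT1G3-int at -0.31, LTR67B at -0.22, ORR1F-int at -0.20 and ERVL-E-int at -0.19, all sense, in the authors' deposited table. The highest beside MTE2b-int were HERVL40-int at 0.23, ORR1A0-int at 0.20 and LTR101_Mam at 0.18, also sense and not past the threshold, in the authors' deposited table. In the same comparison 2 of 3 spermatocyte markers were lower, with a list median of -0.66, and 1 of 3 Leydig cell markers was higher, with a median of 0.25, where 0.881% of sense exons passed. All 4 Sertoli cell markers lay below 0, with a median of -0.20, and 0 passed. The part of these cell types in the ERVL folds was not tested. In bulk RNA fewer cells of a type and less RNA per cell cannot be told apart.

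In P0 ovary 1 ERVL row passed, the sense row of MTA_Mm-int. It fell in the knockout, to a log2 fold of -0.26 (adjusted p = 0.0493 by the authors' deposited table), at a mean count of 2988. That made 1 of 190 sense rows, a share of 0.526% near the 0.575% of all sense repeat rows that passed, and 0 of 208 antisense rows, where 0.186% did. Over all features 0.421% passed. The next lowest sense folds were those of MTB_Mm-int at -0.17 and MTB-int at -0.15 in the authors' deposited table, and neither passed (adjusted p = 1.00 for each). The MTA_Mm LTR was at -0.03 and antisense MTA_Mm-int at -0.01 in the authors' deposited table. In the testis tables MTA_Mm-int was at 0.10 at P12 and -0.06 at P8, neither past the threshold, in the authors' deposited tables. The difference between ovary and testis was not tested.

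Markers of oocytes were lower in the same ovary comparison. Of 6 markers 5 passed, all lower, with a list median of -1.53 and a summed mean count of 581, and none was at 0. In the authors' deposited table Nlrp5, of the egg's subcortical complex, was at -2.51, the oocyte transcription factor gene Nobox at -1.79, Dppa3 at -1.65, Figla at -1.41 and the zona pellucida gene Zp2 at -0.67, while Zp3 at -0.28 did not pass. Of 4 general germ cell markers 1, Mael, was lower, at -1.21 in the authors' deposited table. The summed level of the markers in each group is not given by the tables, and their part in the fall of MTA_Mm-int was not tested.

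**Figure D4:**
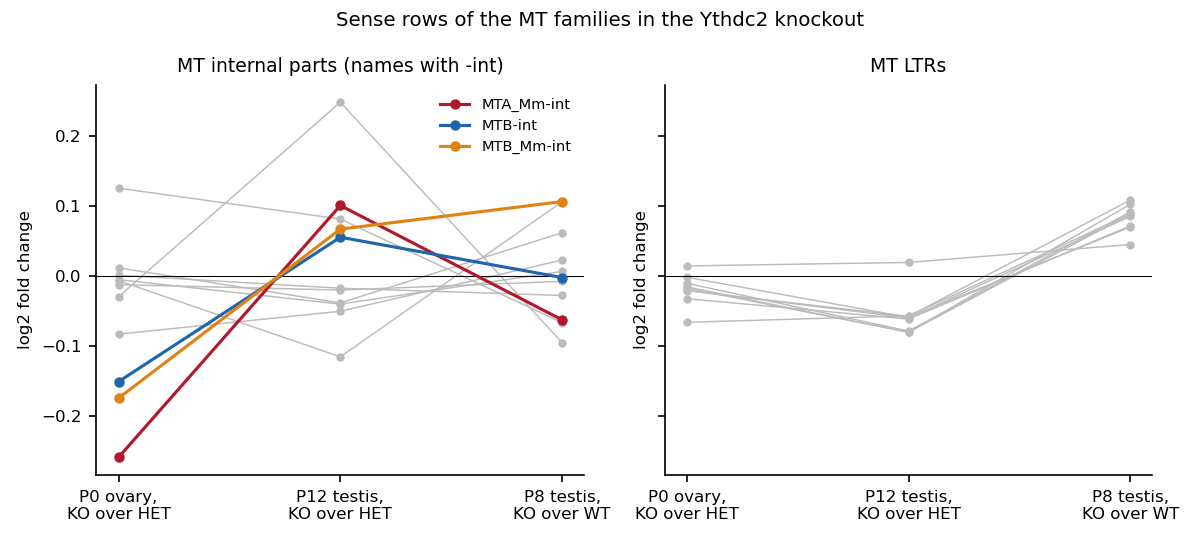
Log2 fold change in the Ythdc2 knockout (y axis) of the sense rows of MT internal parts (left) and MT LTRs (right) in P0 ovary, P12 testis and P8 testis (x axis), 1 line a row, in the authors' values. MTA_Mm-int in ovary, at -0.26, is the 1 value that passed an adjusted p of 0.05, and 8 of 9 LTRs lie below 0 in ovary and at P12 and 9 of 9 above 0 at P8.

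Other MT rows were spread narrowly around 0 in ovary. The MT sense median was -0.02, with 4 of 20 rows above 0, and that of MERVL and MT2 was -0.02, with 2 of 8. ORR1 was at -0.01 with 10 of 28, MLT1 at 0.01 with 24 of 42 and the other names at 0.00 with 49 of 92. The antisense median over all ERVL rows was 0.00, with an SD over rows of 0.0230. MERVL-int was at -0.02 and MT2_Mm at -0.03 on the sense strand in the authors' deposited table. The highest sense folds were those of MLT1I at 0.13, MTE2a-int at 0.13 and MLT1J2 at 0.12 in the authors' deposited table, none of which passed.

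In P8 testis 0 of 408 ERVL rows passed against the wild type, 199 sense and 209 antisense. Over all sense repeat rows the share was 0.0923%, and over all features 0.0328%. Against the heterozygote 0 of 408 passed as well, where 0% of all sense and antisense repeat rows did and 0.0328% of all features. Both comparisons use the same 2 knockout libraries, with 1 control library each, so the knockout pair is the only group of the table with replicates. In the heterozygous library 2 of 5 spermatid markers were higher than in the wild type, where 0.0128% of sense exons passed, with Prm2 at 0.74 and Prm1 at 0.51 in the authors' deposited table. This sets 1 library against 1, with no replicate of either, so any p-value there compares these libraries. Between heterozygote and wild type 0 ERVL rows passed, where 0.0101% of all features did, and MERVL and MT2 sense rows had a median of -0.04, with 1 of 8 above 0.

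The medians of MT and ORR1 sense rows lay a little above 0 at P8. Over the wild type the MT median was 0.07, with 14 of 20 rows above 0, and the ORR1 median 0.05, with 22 of 29, and over the heterozygote they were 0.06 and 0.05. MERVL and MT2 rows had a median of -0.02 over the wild type, with 3 of 8 above 0, and 0.01 over the heterozygote, with 6 of 8. MERVL-int was at -0.05 over the wild type and 0.01 over the heterozygote, and MT2_Mm at 0.03 and 0.03, in the authors' deposited table. The extremes over the wild type were ORR1G at 0.17, MLT1E2 at 0.16 and LTR40b at 0.14 on the high side and MLT2F at -0.16 on the low side, all sense, in the authors' deposited table.

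LTRs and internal parts took different places in these small folds. At P8, over the wild type, the sense internal part was above the LTR in 4 of 41 families, in 1 of 9 MT and in 0 of 14 ORR1 families. The MT internal median was 0.01 and the MT LTR median 0.09, with a median difference of -0.09. Over the heterozygote it was above the LTR in 10 of 41 families, in 2 of 9 MT and in 3 of 14 ORR1 families, and the MT median difference was -0.03. Between the heterozygous and the wild-type library, with no knockout, it was above the LTR in 11 of 41 families. At P12 the MT internal part was above the LTR in 8 of 9 families, with medians of 0.06 and -0.06, and over all names in 24 of 39. In ovary the MT internal part was above the LTR in 4 of 9. No row behind these counts passed in testis, the rows of a table share their libraries, and no test of these differences was made.

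**Figure D5:**
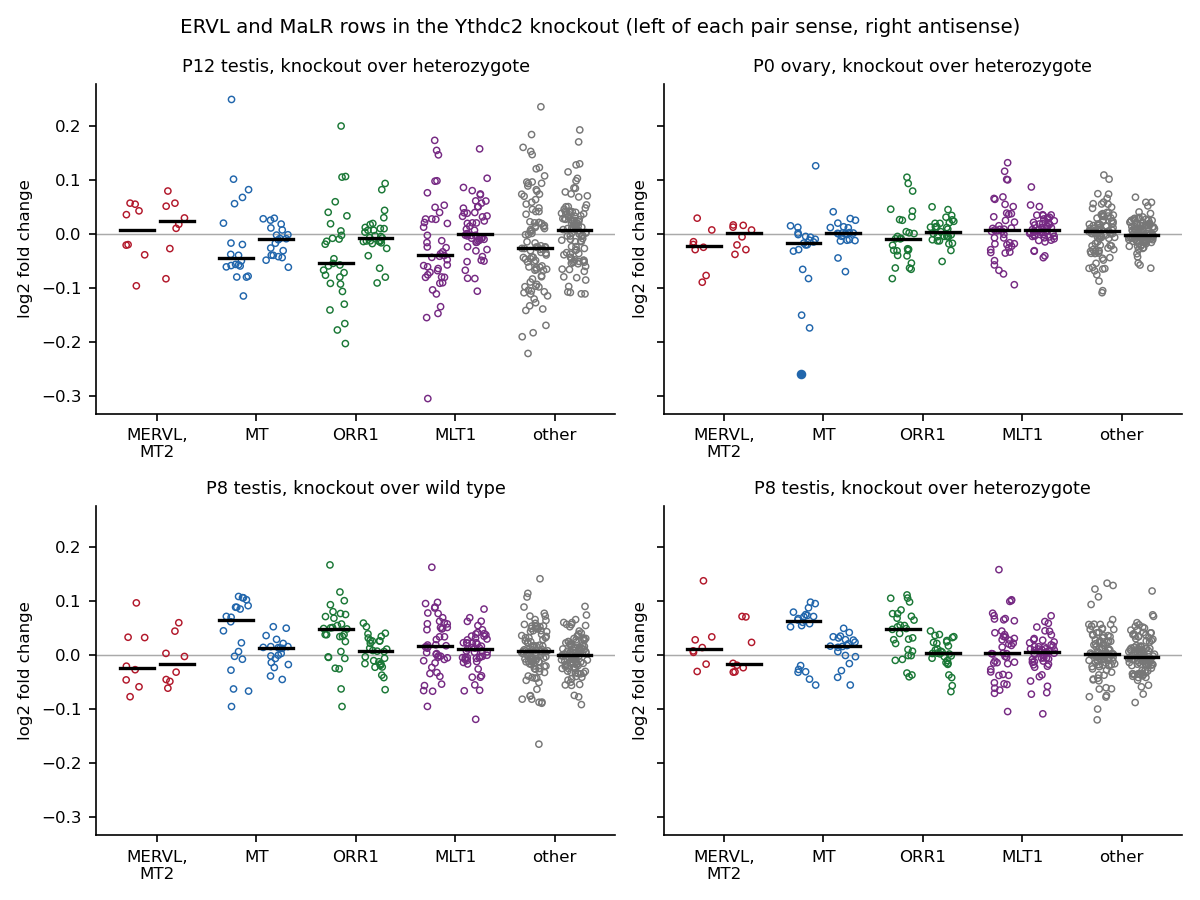
Log2 fold change in the Ythdc2 knockout (y axes, 1 scale) of ERVL and MaLR rows with a mean count of at least 10, by name (x axes), sense on the left of each pair and antisense on the right, in the 4 knockout comparisons. Black bars are medians and the 1 filled point is MTA_Mm-int in ovary, which passed an adjusted p of 0.05, and the medians all lie between -0.06 and 0.07.

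Families did not keep their place from age to age. Across 149 sense families with a mean count of at least 50 in all 4 tables, folds at P12 and at P8 over the wild type had a Pearson r of -0.44 and a Spearman rho of -0.41, and 591 sense rows of other repeats had -0.38 and -0.40. The 2 tables share no library. P12 and ovary had an r of 0.00 and a rho of 0.04. These are descriptions across families, which share libraries and reads, and no p is given.

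The m6A folds and the knockout folds were set side by side. The 47 sense rows higher in the immunoprecipitate had a median knockout fold of -0.02 at P12, against -0.04 for 122 rows not called. In ovary the medians were -0.01 and 0.00, and at P8 both were 0.02. Across the 149 families the r between m6A fold and knockout fold was 0.26 at P12, with a rho of 0.13, and -0.09 in ovary and -0.16 at P8. Of the rows with the highest m6A folds, ORR1A0-int had knockout folds of 0.20 in P12 testis, 0.09 in ovary and -0.06 at P8, and MTE2b-int of 0.25, -0.03 and -0.10, in the authors' deposited tables. None of these passed.

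Among repeats of other classes, those whose folds over P12, ovary, P8 and m6A lay nearest to sense MT2_Mm were L1_Mus3, at a Euclidean distance of 0.0883, MMAR1 at 0.0937, Lx5b at 0.115, L1Md_F2 at 0.129 and UCON4 at 0.129. L1_Mus3, Lx5b and L1Md_F2 are LINE families and MMAR1 is a DNA transposon. The folds were not scaled. Over sense repeat rows the m6A folds had an SD of 0.775, and the knockout folds 0.0606 to 0.105, so the m6A fold weighed most. In the m6A comparison the authors' deposited table put them at 1.20, 1.14, 1.16, 1.20 and 1.12, next to 1.19 for MT2_Mm, by this choice. In ovary they were at 0.06, -0.05, -0.01, 0.10 and 0.02, where MT2_Mm was at -0.03.

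Of the genes that silence LTR elements, 1 passed in the knockout comparisons. Of 43 measured genes, among them the heterochromatin genes Trim28 and Setdb1, 0 passed at P12, where 0.881% of sense exons did, and 0 at P8 over the wild type, where 0.0449% did, with medians of -0.03 and -0.02. In ovary 1 of 41 was lower, Kdm1b, a histone demethylase gene of growing oocytes, at -1.61 (adjusted p = 4.41e-23 by the authors' deposited table), where 0.548% of sense exons passed. In the same comparison 5 of 6 oocyte markers were lower, with a list median of -1.53. Fewer oocytes and less Kdm1b RNA per oocyte cannot be told apart here. Trim28 was at -0.13 at P12 and Setdb1 at -0.26 in the authors' deposited table, and neither passed. In the m6A comparison 14 of 42 were higher and 17 lower, with Setdb1 at 0.76 and Trim28 at -1.77 in the authors' deposited table, where 26.9% of sense exons passed as higher and 26.3% as lower.

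Among 12 measured genes that write, read or erase m6A, Ythdc2 itself was the 1 that passed at P12, where 0.881% of sense exons did, and 0 passed in ovary or at P8. In the m6A comparison 6 were higher and 1 lower, where 26.9% of sense exons were higher and 26.3% lower. The authors' deposited table gave 2.04 for Rbm15, 1.63 for Wtap and 0.90 for Zc3h13, which belong to the writer complex, and 1.84 for Ythdf2, 1.69 for Ythdf3 and 0.90 for Ythdf1, which are cytoplasmic readers. Ythdc2 itself was lower, at -2.00 in the authors' deposited table.

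A list was drawn up of names taken for genes of the 2-cell embryo with a link to MERVL, and few of its rows could be read. The tables do not show such a link for any of them. Of 34 listed names, 27 are names in RefSeq. A mean count above 0 was found for 9 names at P12, 9 in ovary, 12 at P8 and 20 over the m6A libraries. Names without a row and rows with a count of 0 were not told apart, so an absent name does not speak for a silent gene. Of the names above 0, 4 had a mean count of at least 10 at P12, 3 in ovary and 5 at P8. Smarca5 alone had 3812 of a summed mean count of 5814 at P12, so the sum says little of the other names. None of them passed at P12, in ovary or at P8 over the wild type. Against the heterozygote at P8, where 0.0577% of sense exons passed, Spz1 was lower, at -0.45 (adjusted p = 0.034 by the authors' deposited table), and over the wild type it stood at -0.11. All 5 measured spermatid markers also lay below 0 against the heterozygote, with a median of -0.67, where their median over the wild type was -0.19. In the heterozygous library itself all 5 were above the wild type, with a median of 0.45. The part of that 1 library in the Spz1 fold was not tested. In the m6A comparison Eif1a was higher, at 0.99, and Smarca5 lower, at -1.59, in the authors' deposited table.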

How the data were processed

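The members, their name groups, the gene lists and the markers were chosen with earlier results of these data known. Per the file headers, the authors deposited their own comparisons by feature and strand, and for each row a signal (the mean of its normalized counts over a table's libraries), a log2 fold change and an adjusted p-value. The submitters' processing notes name mm10 and DESeq2 for these tables and cutadapt for the ovary. For versions, aligner, repeat annotation and reads that match many places, nothing is given in the sources used here, so how reads of near-identical families such as MTB and MTB_Mm were split is unknown. Which features were normalized and adjusted together is not stated either. Depth per library is unknown, since the tables hold no counts per library, and no interval or floor is given.

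At P8 and P12 the knockout columns are headed with IP and input per the file headers. The labels know only total RNA there, so these columns were taken for knockout over control. In the m6A table the P8 columns alone were used. In each repeat type the adjusted p-values were sorted in every age's columns separately, and a clean limit of mean count between rows with and without a p (32.8 sense, 11.1 antisense) was seen on both strands at P8 alone. At P12 and P20 sense rows with a mean count of 0 had a p, and at P20 an antisense row with a mean count of 2330 had none. The RNA Bind-N-Seq libraries were not used here.

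From these values medians, counts and shares were computed with Python 3.11.15, pandas 2.3.3 and NumPy 2.4.6. Medians and counts used rows with a mean count of at least 10. Sense shares of ERVL families used those with at least 100 counts, and the shares of other repeats had no minimum. Figures were drawn with Matplotlib 3.10.9. The steps that count calls and sort rows by name were tested on a simulated table and example names, and the other steps were not. The design's planned edgeR fit was not run, since the tables hold no counts. The rule for naming rows took those past 0.05 (at most 15 a direction) and the 5 highest and 5 lowest folds with a mean count of at least 50. It also took MT2_Mm and MERVL-int, and the 2 most counted rows of each name group and strand. The text gives a selection of these. It also names rows outside the rule, mostly further MERVL, MT and ORR1 rows of the m6A comparison, such as MTEb-int and ORR1A3. Those were named with their values known. Genes named passed the test, except Trim28, Setdb1 and Zp3, named after their values were seen.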

Additional observations from a re-analysis of the deposited data

How the results depend on the processing

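At a looser threshold of 0.1, 2 ERVL rows passed in P12 testis, both higher, and at a stricter threshold of 0.01 the count in ovary went from 1 to 0, both by construction of the threshold. Under every alternative run the m6A calls, 81 in all and 75 higher, stayed within 1.5 times, but those lower went from 6 to 3 at 0.01 and to 9 at 0.1. Of 36 knockout medians, 11 changed sign under some alternative, with a largest shift of 0.0347, and their largest size was 0.0658, so their signs are weak descriptions. With the heterozygote as control the P8 median of MERVL and MT2 sense rows went from -0.02 to 0.01. Of 12 m6A medians, 3 changed sign, and with a mean weighted by counts antisense MERVL and MT2 went from -0.26 to 0.15 and the other sense names from -0.04 to 0.34, while antisense MLT1 stayed near 0. Weighting also moved ORR1 sense from 0.53 to 0.86 and all ERVL sense rows from 0.16 to 0.72, and without a minimum count MLT1 sense went from 0.30 to 0.13. The cause was not tested. No paired analysis was possible because the tables hold no values of single libraries, and for that reason no library could be left out. The planned pooled control at P8 was not run.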
